A study of Mus musculus with 86 samples.

Results

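Ketone body use in the heart was followed through 4 genes: Bdh1, Oxct1, Acat1 and Slc16a1. They were read by every probe set whose platform symbol was 1 of these 4 names, which gave 11 of the 45101 probe sets on the array and 4 of the 18193 genes that had a probe set of a single symbol. Bdh1 had 2 probe sets, Oxct1 had 4, Acat1 had 3 and Slc16a1 had 2, and each was kept apart.

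The hearts came from mice of 4 lines. FVB and C57BL/6 are inbred wild-type strains, B6129SF2/J is a wild-type hybrid line, and the labels do not spell out the name B2KO. FVB, C57BL/6 and B2KO mice were randomised to isoproterenol, a beta-adrenergic agonist infused at 120 µg/g/day for 14 days, or to no treatment. The protocol text does not describe B6129SF2/J. Its sample titles name only isoproterenol treatment or no treatment, and the same dose and duration were assumed for it. The labels name no sham or vehicle infusion for the untreated mice. After averaging of 1 duplicated array, there were 12 treated and 10 untreated FVB hearts, 10 treated and 11 untreated C57BL/6 hearts, 10 treated and 10 untreated B2KO hearts, and 12 treated and 10 untreated B6129SF2/J hearts. Each remaining array was counted as 1 heart. According to the series description, the infusion led to systolic dysfunction in FVB and B2KO, and to diastolic dysfunction in C57BL/6. No chamber of the heart is named in the labels. In such bulk RNA a difference can come from fewer cells of a type or from less RNA per cell, and these cannot be told apart.

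Ketone bodies are made in the liver from fatty acids and are burned by the heart. Slc16a1 encodes MCT1, a transporter that carries ketone bodies and lactate across the cell membrane. In mitochondria, BDH1 oxidises beta-hydroxybutyrate to acetoacetate, and OXCT1, also called SCOT, then moves CoA from succinyl-CoA onto acetoacetate, the step that commits the ketone body to oxidation. ACAT1, the mitochondrial acetoacetyl-CoA thiolase, splits the product into acetyl-CoA for the citric acid cycle and also acts in isoleucine breakdown. Raised BDH1 has been described in failing hearts.

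Values are log2 intensities on a scale where 0 is the median of the array, and a change is the difference between group means, treated minus untreated, given ± SE from a limma fit over 24885 probe sets. An adjusted p under 0.05 was counted as passing. All 11 probe sets passed the filter on low values, a highest group mean above the array median, and Slc16a1 1446274_at passed it narrowly.

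Arrays that stood apart were kept in the values below unless stated. The array of treated B2KO replicate 10 failed by its low likeness to the rest, at a median r of 0.573. By probe sets that mark the strains, treated FVB replicate 2 resembled C57BL/6 more than FVB, and treated B2KO replicate 7 resembled B6129SF2/J about as much as its own line. Another 5 arrays had a Gapdh difference, 3′ minus 5′ probe set, above 2 on the log2 scale, a sign of degraded RNA. Together these make the 8 arrays in doubt. Group means of the cardiac myosin gene Myh6 lay between 11.4 and 12.1. Among hepatocyte genes, those of Alb lay between −1.44 and −0.38, and the highest of Apoa1 and Ttr were 0.15 and 0.87.

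Isoproterenol raised Bdh1 in C57BL/6 and B6129SF2/J, where its untreated level was low, and lowered Acat1 in the mean over the 4 lines, while the most intense Oxct1 probe set and the brighter Slc16a1 probe set did not pass in any comparison. In C57BL/6, 2 of the 11 probe sets rose and 2 fell, in a comparison where 13.3% of all probe sets rose and 9.89% fell. In B6129SF2/J, 3 rose and 1 fell, against 2.35% higher and 2.7% lower over all probe sets. In B2KO, 0 rose and 2 fell, against 0.0522% higher and 0.796% lower. Neither fall passed with treated B2KO replicate 10 alone left out. That of Acat1 1424182_at did pass without the 3 arrays in doubt by failure or strain, and without all 8. In FVB, 0 of 11 passed limma's adjusted threshold, 1 had an unadjusted p under 0.05, and 1.14% of all probe sets passed. In the mean over the 4 lines, 2 rose and 4 fell, with 7.73% of all probe sets higher and 12.3% lower. These falls include Slc16a1 1446274_at, which passed the filter only through untreated groups, so its fall was favoured and does not support the count. After centring of the arrays on the median of tested probe sets, the split was 2 higher and 5 lower in C57BL/6 and 3 higher and 3 lower in B6129SF2/J. The median change of the 11 probe sets was −0.11 in C57BL/6, against 0.08 over all probe sets tested, and −0.54 in B2KO, against −0.23. Without treated B2KO replicate 10 the B2KO medians were −0.30 for the 11 probe sets, against −0.06 over all.

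**Figure D1:**
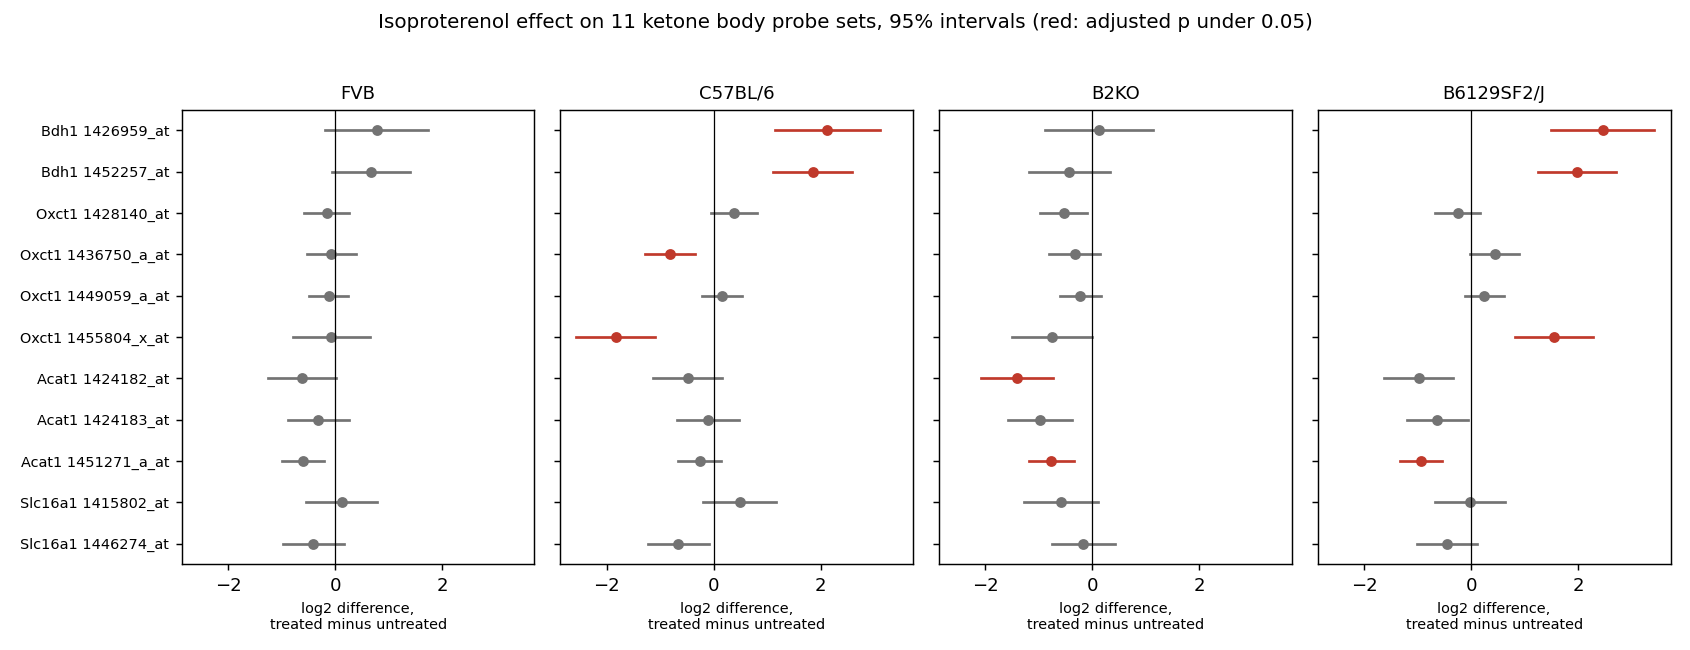
Isoproterenol effect on each of the 11 probe sets, as the log2 difference treated minus untreated on the horizontal axis, with 1 panel a line. Points are fitted differences, bars are 95% confidence intervals, and red marks an adjusted p under 0.05. Both Bdh1 probe sets lie between 1.85 and 2.47 in C57BL/6 and B6129SF2/J, and the 12 Acat1 points all lie below 0.

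Bdh1, the dehydrogenase that starts the oxidation of beta-hydroxybutyrate, was read by 1452257_at and by the dimmer 1426959_at. The RefSeq table gives 2 start windows for the gene on chromosome 16, and the 250 bases before each start are shown because the 2 probe sets moved together and the gene has a choice of starts. The windows are chr16:31422047-31422296 and chr16:31428503-31428752 on the plus strand of GRCm38.p6, a C57BL/6J assembly.
Bdh1 upstream start: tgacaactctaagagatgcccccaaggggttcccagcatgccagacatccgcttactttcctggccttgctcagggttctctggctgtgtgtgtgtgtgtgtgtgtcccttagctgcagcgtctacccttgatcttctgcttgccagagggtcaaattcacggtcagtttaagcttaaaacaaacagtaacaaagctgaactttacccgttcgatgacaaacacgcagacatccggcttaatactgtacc
Bdh1 downstream start: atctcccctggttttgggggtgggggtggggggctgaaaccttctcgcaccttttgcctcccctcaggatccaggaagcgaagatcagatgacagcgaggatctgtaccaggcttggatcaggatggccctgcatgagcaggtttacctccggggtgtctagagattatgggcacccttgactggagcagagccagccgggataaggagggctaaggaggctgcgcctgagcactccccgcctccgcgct
The first window holds 49.6% G and C and a run of alternating t and g, and the second holds 60.8% G and C. A search of both strands for 6 motifs found no match in either: the nuclear receptor core AGGTCA (in 14% of 32851 promoter windows of the same length), its extended form TNAAGGTCA, which contains it (1.14%), the cAMP response element TGACGTCA (1.55%), the shorter TGACG, which lies within it (17.8%), the E-box CACGTG (6.02%) and the TATA box TATAAA (12.4%). No match says only that these letters are not in these windows.

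In C57BL/6, 1452257_at read 6.78, 7.53 and 8.03 in treated hearts (lowest, median and highest), against 4.33, 5.62 and 6.97 in untreated hearts. Of the 10 treated hearts, 9 lay above the whole untreated range and 1 lay within it. The rise was 1.85 ± 0.37, or 3.60-fold (adjusted p = 0.000143). The second probe set, 1426959_at, read 4.19, 4.80 and 5.20 in treated C57BL/6 hearts, against −0.15, 2.85 and 3.87 in untreated hearts. Here the groups did not overlap, which was true of 0.699% of all probe sets in this direction. The rise was 2.12 ± 0.49 (adjusted p = 0.000929).

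B6129SF2/J hearts gave a similar picture. There Bdh1 1452257_at read 6.92, 7.68 and 7.99 in treated hearts, against 4.19, 5.57 and 6.96 in untreated hearts, with 11 of 12 treated hearts above the untreated range. It rose by 1.98 ± 0.36, or 3.95-fold (adjusted p = 0.000144). The dimmer probe set read 3.46, 5.27 and 5.93 in treated hearts, against 0.86, 2.68 and 4.30 in untreated hearts, and rose by 2.47 ± 0.48 (adjusted p = 0.000432). Of its 12 treated hearts, 9 lay above the untreated range.

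FVB hearts began higher. In them Bdh1 1452257_at read 6.29, 7.85 and 8.77 in treated hearts, against 6.56, 6.99 and 7.73 in untreated hearts, with 7 of 12 treated hearts above the untreated range and 1 below it. The difference of 0.67 ± 0.36 did not pass (adjusted p = 0.521), nor did 0.78 ± 0.48 at 1426959_at (adjusted p = 0.617). The lowest treated FVB heart at both probe sets was replicate 2, the one nearer to C57BL/6 by strain markers, at 6.29 and 2.38, which lie inside the untreated C57BL/6 ranges. Without the 8 arrays in doubt the differences were 0.75 ± 0.25 (adjusted p = 0.0604) at 1452257_at and 0.98 ± 0.30 (adjusted p = 0.0377) at 1426959_at.

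In B2KO, Bdh1 1452257_at read 1.48, 7.68 and 8.03 in treated hearts, against 6.13, 7.31 and 7.74 in untreated hearts. The value of 1.48 belongs to replicate 10, and the next treated heart read 5.89. The difference was −0.43 ± 0.38 (adjusted p = 0.559) with that array and 0.16 ± 0.28 (adjusted p = 0.884) without it, and neither passed. At 1426959_at the difference was 0.12 ± 0.51 (adjusted p = 0.93) with it and 0.62 ± 0.47 (adjusted p = 0.682) without it.

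**Figure D2:**
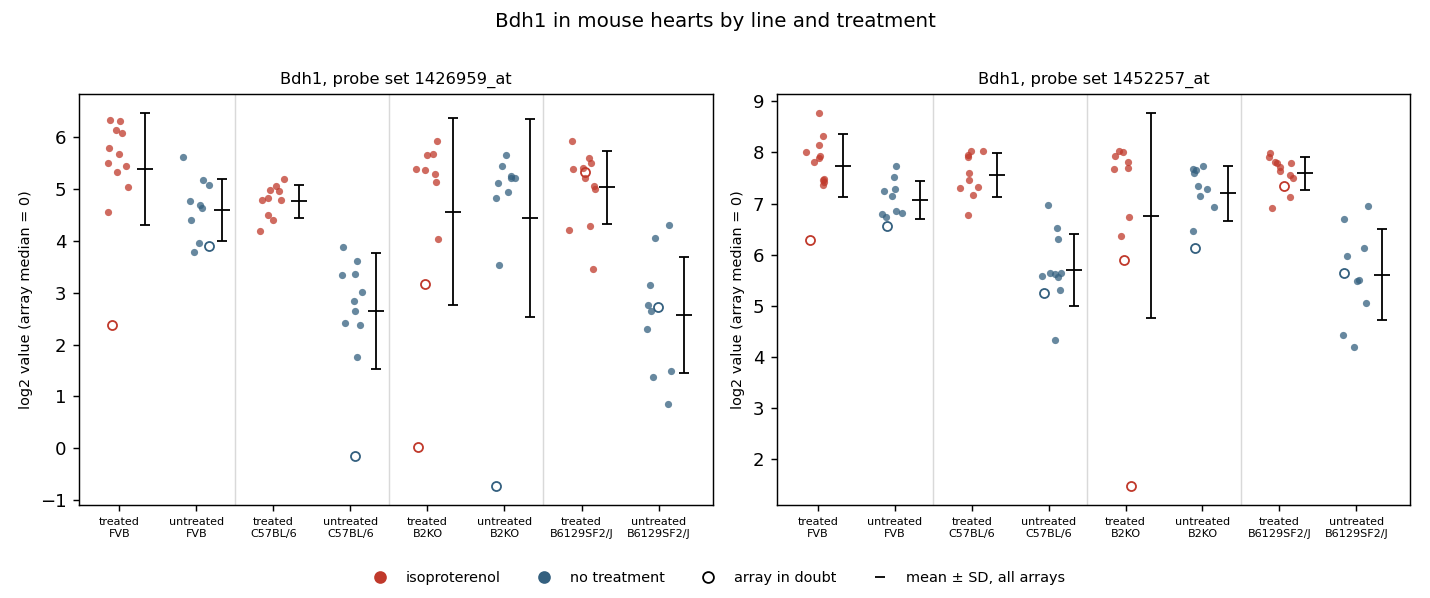
Bdh1 log2 values in each array (vertical axis, array median = 0) for 1426959_at and 1452257_at, by line, treated hearts left of untreated. Points are arrays, open points are the 8 arrays in doubt, and bars are mean ± SD over all arrays. Untreated C57BL/6 and B6129SF2/J hearts sit lowest, with means of 5.71 and 5.61 at 1452257_at, and treated hearts of both lines sit at 7.56 and 7.59.

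The untreated hearts differed between lines too. At 1452257_at, untreated FVB averaged 7.07 ± 0.38 (SD, n = 10) and untreated C57BL/6 5.71 ± 0.70 (SD, n = 11), a difference of 1.36 ± 0.37 (limma adjusted p = 0.00636). Untreated B2KO exceeded untreated C57BL/6 by 1.49 ± 0.37 (adjusted p = 0.00262). Untreated B6129SF2/J lay 1.46 below untreated FVB (log2 difference −1.46 ± 0.38, adjusted p = 0.00685) and 1.59 below untreated B2KO (−1.59 ± 0.38, adjusted p = 0.00305). The 4 matching differences at 1426959_at, between 1.80 and 2.04 log2 units in size, passed as well. Untreated B6129SF2/J and untreated C57BL/6 differed by −0.10 ± 0.37 (95% interval −0.84 to 0.64, adjusted p = 0.9), and untreated B2KO and untreated FVB by 0.13 ± 0.38 (interval −0.62 to 0.89, adjusted p = 1). Both probe sets shifted the same way between lines, and strain polymorphisms under the probes were not tested. These 8 differences passed in each of 85 leave-one-out fits and in every alternative setting that included them.

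In the order of group means at 1452257_at, treated FVB stood at 7.74, treated B6129SF2/J at 7.59, treated C57BL/6 at 7.56, untreated B2KO at 7.20, untreated FVB at 7.07, treated B2KO at 6.76, untreated C57BL/6 at 5.71 and untreated B6129SF2/J at 5.61. With all arrays, no neighbours in this order were farther apart than the larger of their SDs. The widest gap, 1.06, lay between treated B2KO, whose SD was 2.01, and untreated C57BL/6. Without replicate 10, treated B2KO averaged 7.35 ± 0.80 (SD, n = 9). The widest gap still lay between the 2 low untreated groups and the other 6. Its neighbours were then untreated FVB, at 7.07 ± 0.38 (SD), and untreated C57BL/6, at 5.71 ± 0.70 (SD). These were farther apart than the larger of their SDs.

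The difference between effects was tested directly. The effect on Bdh1 1452257_at, as the mean of FVB and B2KO, was lower than in C57BL/6 (difference −1.73 ± 0.45, adjusted p = 0.00845), and it was still −1.32 ± 0.31 without the 8 arrays in doubt (adjusted p = 0.00176). In this comparison 1 member was higher and 1 lower, against 3.25% and 7.63% of all probe sets. For B2KO minus C57BL/6, where 0 members were higher and 2 lower, against 2.41% and 8.54% of probe sets, the difference was −2.28 ± 0.53 (adjusted p = 0.00428), and −1.69 ± 0.38 without treated B2KO replicate 10 (adjusted p = 0.00438). For FVB minus C57BL/6 it was −1.17 ± 0.52 and did not pass (adjusted p = 0.213). At 1426959_at the same 3 differences were −1.67, −2.00 and −1.34, and none passed (adjusted p = 0.0587, 0.0515 and 0.309). The effects of B6129SF2/J and C57BL/6 differed by 0.14 ± 0.52 at 1452257_at, with a 95% interval of −0.90 to 1.17 (adjusted p = 0.91). B6129SF2/J minus B2KO was 2.42 ± 0.53 (adjusted p = 0.041, 2 members higher and 0 lower, against 0.0683% and 0.0321% of probe sets), a call that was lost in 17 of 85 leave-one-out fits, with no filter (adjusted p = 0.0549) and without the 3 arrays in doubt by failure or strain (1.65 ± 0.36, adjusted p = 0.0521). B6129SF2/J minus FVB was 1.31 ± 0.51 (adjusted p = 0.586). No member passed there in limma's test, although 3 had an unadjusted p under 0.05, and 0.0281% of probe sets passed. For B2KO minus FVB, 0 members passed in limma's test, 1 had an unadjusted p under 0.05, and 0% of probe sets passed.

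RNA quality and other cells moved with Bdh1 in part. Over the arrays and within groups, 1426959_at correlated with the Gapdh 3′ minus 5′ difference at r = −0.58, and 1452257_at at r = −0.24. The lowest untreated values of 1426959_at, −0.15 in C57BL/6 and −0.73 in B2KO, came from arrays with Gapdh differences of 7.43 and 7.31. Without the 8 arrays in doubt, the C57BL/6 rises were 1.84 ± 0.30 at 1426959_at (adjusted p = 2.36e-06) and 1.80 ± 0.25 at 1452257_at (adjusted p = 7.27e-08). In treated C57BL/6 hearts, where 13.3% of all probe sets rose, 5 of 7 endothelial marker probe sets rose, with a median change of 1.31. Also higher there were 3 of 18 cardiomyocyte (median 0.54), 2 of 4 tested smooth muscle (0.71) and 3 of 4 tested hepatocyte probe sets (1.18), the last from Apoa1 and Ttr, whose treated C57BL/6 means were 0.13 to 0.87. Of 9 hepatocyte probe sets only 4 passed the filter, and the brightest of Apoa1 had group means of −1.38 to 0.15. The filter could thus favour a rise where these probe sets read high. The summed linear level of 6 endothelial genes was 159 to 394 in treated and 77.0 to 262 in untreated C57BL/6 hearts. In B6129SF2/J, where 2.35% of all probe sets rose, 0 of 7 endothelial probe sets rose and their median change was 0.16. Fibroblast markers rose in 6 of 14 probe sets in C57BL/6, 4 of 14 in FVB, 4 of 14 in B6129SF2/J and 0 of 14 in B2KO. Over all probe sets, 1.14% passed in FVB and 0.0522% rose in B2KO. Erythroid markers rose in 3 of 3 tested probe sets in FVB, 1 of 3 in C57BL/6 and 0 of 3 in B2KO and in B6129SF2/J. Of 5 tested adipocyte probe sets, 2 rose and 1 fell in C57BL/6, and 1 rose and 1 fell in B6129SF2/J. In C57BL/6, 1 of 8 macrophage probe sets rose. The part of these cell types in the Bdh1 values was not tested.

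Oxct1, whose product carries out the committed step of ketone oxidation, gave 4 readings that did not move together. The most intense, 1449059_a_at, had group means between 9.61 and 9.87, and its isoproterenol changes were −0.12 ± 0.18 in FVB, 0.15 ± 0.19 in C57BL/6, −0.23 ± 0.19 in B2KO and 0.24 ± 0.18 in B6129SF2/J. None passed, and the 95% intervals of the 4 changes lay within −0.61 to 0.61. In C57BL/6 it read 9.32, 9.82 and 10.2 in treated hearts, against 9.03, 9.62 and 10.5 in untreated hearts, and all 10 treated hearts fell within the untreated range. Another probe set, 1428140_at, changed by 0.38 ± 0.21 in C57BL/6 and −0.54 ± 0.22 in B2KO. With all arrays it did not pass in any line (adjusted p = 0.191 in C57BL/6 and 0.172 in B2KO). Without the 8 arrays in doubt its rise in C57BL/6 did pass, at means of 8.27 in treated and 7.76 in untreated hearts.

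The other two Oxct1 probe sets fell in C57BL/6, and 1455804_x_at rose in B6129SF2/J. By Affymetrix naming, the suffix of 1455804_x_at means that some of its probes can also bind other transcripts, so its reading as Oxct1 is less certain. This probe set read 5.60, 6.86 and 8.19 in treated C57BL/6 hearts, against 7.72, 8.63 and 9.33 in untreated hearts. Of 10 treated hearts, 8 lay below the untreated range, and the fall was −1.83 ± 0.37 (adjusted p = 0.000153). In B6129SF2/J it read 6.17, 7.64 and 8.03 in treated hearts, against 4.28, 6.11 and 7.84 in untreated hearts, a rise of 1.55 ± 0.36 (adjusted p = 0.00361) with 8 of 12 treated hearts inside the untreated range. The effects differed by 3.39 ± 0.52 (B6129SF2/J minus C57BL/6, adjusted p = 4.42e-06), in a comparison where 2 members were higher and 0 lower, against 4.65% and 5.58% of probe sets. In FVB the change was −0.07 ± 0.36 (adjusted p = 0.977) and in B2KO −0.75 ± 0.38 (adjusted p = 0.267).

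At Oxct1 1436750_a_at, treated C57BL/6 hearts read 8.17, 8.84 and 9.13, against 9.14, 9.48 and 9.92 in untreated hearts. The groups did not overlap, as in 0.237% of all probe sets in this direction, though the nearest values, 9.13 and 9.14, almost touched. The fall was −0.81 ± 0.23 (adjusted p = 0.00737), and B6129SF2/J minus C57BL/6 was 1.25 ± 0.33 (adjusted p = 0.00659), while the B6129SF2/J change itself, 0.44 ± 0.23, did not pass (adjusted p = 0.305). FVB minus C57BL/6, with 1 member higher and 0 lower against 1.16% and 1.31% of probe sets, was 1.76 ± 0.52 at 1455804_x_at (adjusted p = 0.0458), and that call was lost in 22 of 85 leave-one-out fits.

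Across the 77 arrays without those in doubt, 1455804_x_at and 1436750_a_at correlated at r = 0.82, whereas 1455804_x_at and 1428140_at correlated at r = −0.39. These points share their groups and normalisation, and the values are a description. The disagreement extended to untreated hearts. Untreated B6129SF2/J read 2.67 below untreated C57BL/6 at 1455804_x_at (−2.67 ± 0.37, adjusted p = 2.76e-07) and 0.84 below it at 1436750_a_at (−0.84 ± 0.23, adjusted p = 0.00961), but 0.65 ± 0.21 above it at 1428140_at (adjusted p = 0.0316) and level with it at 1449059_a_at (−0.01 ± 0.19, interval −0.39 to 0.36). Untreated FVB lay 1.42 below untreated C57BL/6 at 1455804_x_at (−1.42 ± 0.37, adjusted p = 0.00409). Which of the 4 probe sets tracks the main Oxct1 transcript was not tested.

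**Figure D3:**
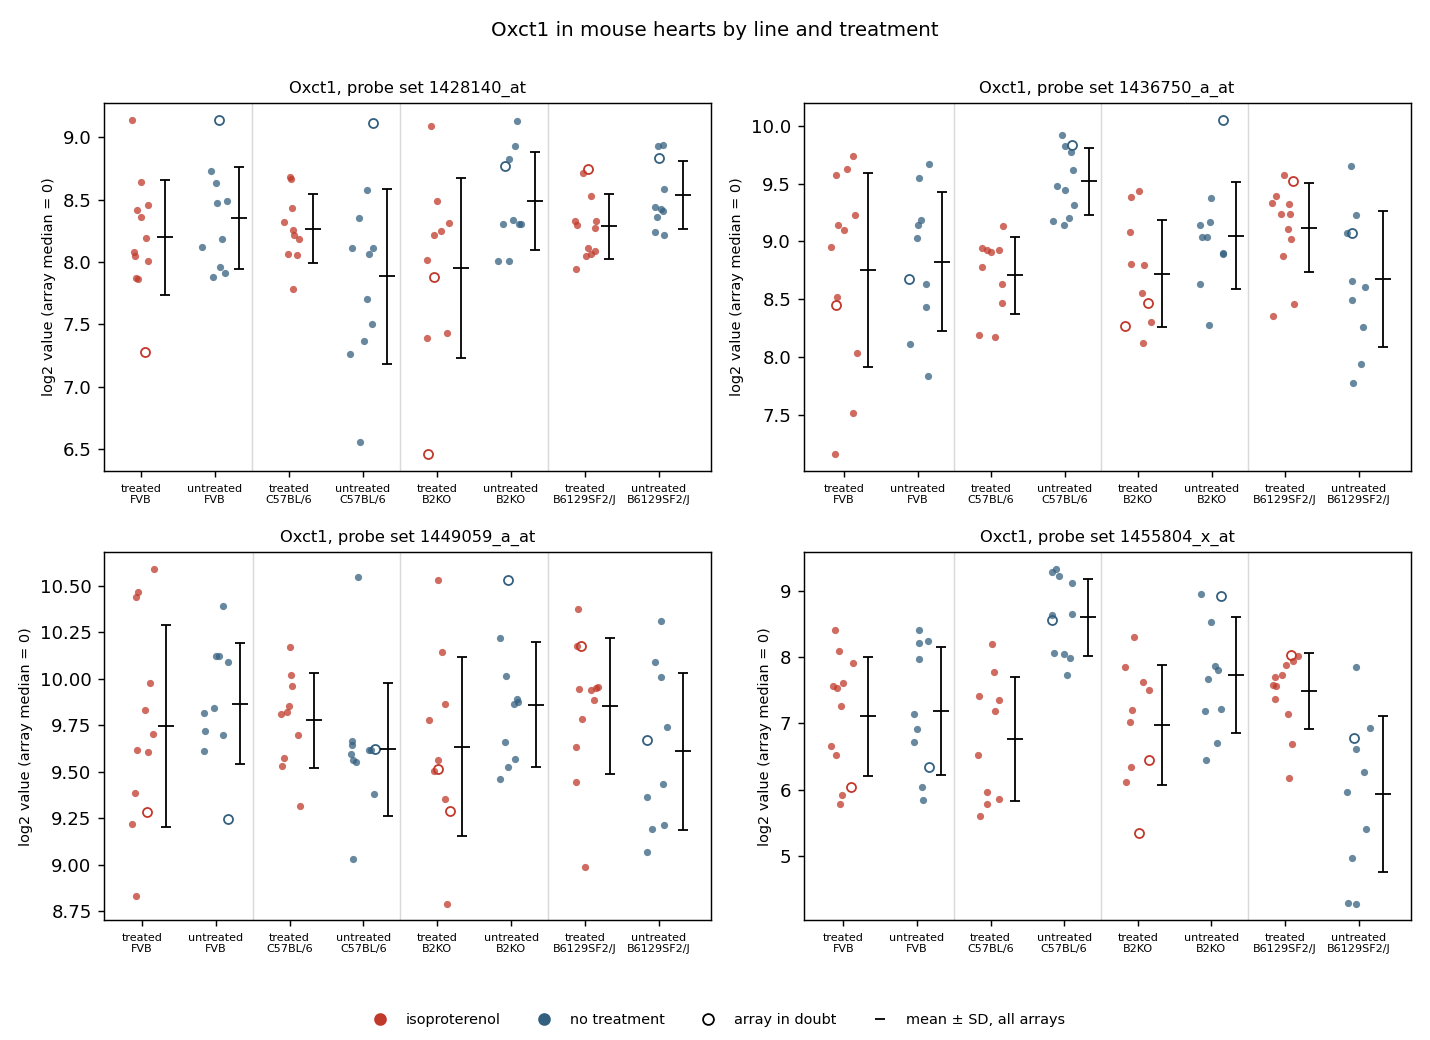
Oxct1 log2 values in each array (vertical axis, array median = 0) for its 4 probe sets, by line, treated hearts left of untreated. Points are arrays, open points are the 8 arrays in doubt, and bars are mean ± SD over all arrays. The groups at 1449059_a_at average 9.61 to 9.87, while at 1455804_x_at untreated C57BL/6 averages 8.60 and untreated B6129SF2/J 5.93.

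Counted over all members, 2 were higher and 2 lower in untreated FVB than in untreated C57BL/6, against 6.17% and 8.29% of all probe sets. In untreated B2KO, 3 were higher and 0 lower than in untreated C57BL/6, against 6.74% and 6.18%. In untreated B6129SF2/J, 1 was higher and 2 lower than in untreated C57BL/6, against 5.96% and 5.28%. Compared with untreated FVB, 0 were higher and 3 lower in untreated B6129SF2/J, against 4.85% and 2.4%, and compared with untreated B2KO, 0 were higher and 3 lower, against 3.34% and 2.55%. Untreated B2KO and untreated FVB gave 0 calls in limma's test and 0 members with an unadjusted p under 0.05, with 0.0402% of probe sets passing. With all arrays, these calls fell on Bdh1 and Oxct1, and none on Acat1 or Slc16a1. Treated B2KO replicate 10 enters the shared estimate of spread, so this holds for all arrays only. Without that array, 2 were higher and 3 lower in untreated B6129SF2/J than in untreated FVB. Against untreated C57BL/6, 2 were then higher and 2 lower. These baselines share the untreated arrays of each line.

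Acat1, the thiolase of the last step, was lower in treated hearts at each of its 3 probe sets in each of the 4 lines, although most of the 12 differences did not pass singly. Averaged over lines, the fall was −0.64 ± 0.10 at 1451271_a_at (adjusted p = 1.36e-06), −0.87 ± 0.16 at 1424182_at (adjusted p = 3.74e-05) and −0.51 ± 0.15 at 1424183_at (adjusted p = 0.0089). Without treated B2KO replicate 10 the 3 falls were −0.61 ± 0.10, −0.74 ± 0.11 and −0.38 ± 0.09, and each passed (adjusted p = 8.75e-07, 1.16e-07 and 0.00104). The 3 probe sets correlated with each other at r = 0.70 to 0.82 over 77 arrays.

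The clearest separation was in B6129SF2/J. There Acat1 1451271_a_at read 7.02, 7.45 and 7.79 in treated hearts, against 7.88, 8.45 and 8.73 in untreated hearts. The groups did not overlap, as in 0.47% of all probe sets in this direction, and the fall was −0.93 ± 0.20 (adjusted p = 0.00126). The groups of 1424183_at did not overlap either, at 7.60, 8.03 and 8.44 in treated hearts and 8.52, 8.62 and 9.03 in untreated hearts. Its difference of −0.63 ± 0.29 did not pass with all arrays (adjusted p = 0.221) and passed without treated B2KO replicate 10, which enters the shared estimate of spread (−0.63 ± 0.18, adjusted p = 0.0142). At 1424182_at the difference was −0.98 ± 0.32 (adjusted p = 0.0556), and 11 of 12 treated hearts lay below the untreated range.

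In B2KO, Acat1 1424182_at read 0.45, 5.88 and 6.90 in treated hearts, against 6.02, 6.83 and 8.35 in untreated hearts. Replicate 10 was again the lowest, and the next treated heart read 5.27. The fall was −1.41 ± 0.34 (adjusted p = 0.0231) with it and −0.85 ± 0.22 (adjusted p = 0.081) without it. At 1451271_a_at the fall of −0.77 ± 0.21 (adjusted p = 0.0493) also failed to pass without that array (−0.64 ± 0.20, adjusted p = 0.198), and it was lost in 64 of 85 leave-one-out fits. In FVB the largest difference was −0.61 ± 0.32 at 1424182_at (adjusted p = 0.499), and −0.59 ± 0.20 at 1451271_a_at had an adjusted p of 0.147. Without the 8 arrays in doubt both passed, at −0.79 ± 0.18 (adjusted p = 0.00176) and −0.67 ± 0.20 (adjusted p = 0.0257). C57BL/6 gave the smallest differences of the 4 lines at each probe set, −0.49 ± 0.33, −0.11 ± 0.29 and −0.26 ± 0.20, and none passed. No difference between lines in the Acat1 effect passed.

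**Figure D4:**
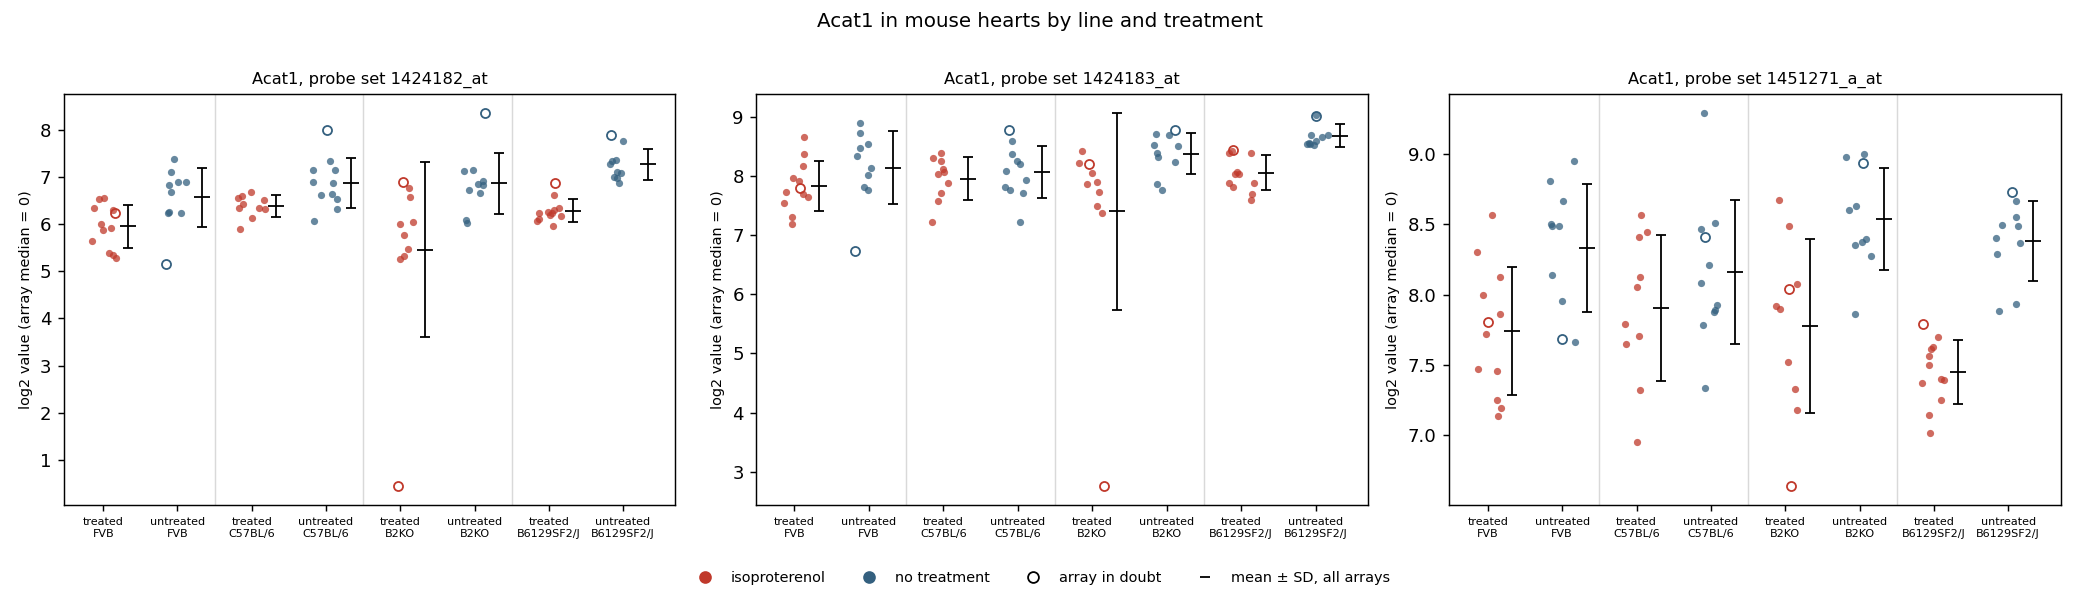
Acat1 log2 values in each array (vertical axis, array median = 0) for its 3 probe sets, by line, treated hearts left of untreated. Points are arrays, open points are the 8 arrays in doubt, and bars are mean ± SD over all arrays. At 1451271_a_at treated B6129SF2/J averages 7.45 and untreated B6129SF2/J 8.38, with no overlap, and treated B2KO replicate 10 stands alone at 0.45 at 1424182_at.

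Slc16a1, the transporter gene, is preceded by a window very rich in G and C, at 76.4%. This window is shown because it held the single motif match found among the member windows searched. Its 250 bases lie at chr3:104638414-104638663 on the plus strand of GRCm38.p6, and the capitals mark the E-box CACGTG, which reads the same on both strands and begins 200 bases before the start.
Slc16a1 upstream of start: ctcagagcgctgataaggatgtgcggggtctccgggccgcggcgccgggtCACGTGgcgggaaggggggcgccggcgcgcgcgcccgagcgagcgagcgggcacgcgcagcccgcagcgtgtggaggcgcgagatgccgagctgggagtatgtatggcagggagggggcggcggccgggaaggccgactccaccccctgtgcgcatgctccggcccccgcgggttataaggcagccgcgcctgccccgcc
The Oxct1 window held no match to the 6 motifs. No window was available for Acat1, so that gene was not searched. These matches are a description and show no binding.

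The brighter Slc16a1 probe set, 1415802_at, read 7.87, 8.65 and 9.13 in treated C57BL/6 hearts, against 7.38, 8.23 and 9.29 in untreated hearts. All 10 treated hearts lay within the untreated range, and the difference of 0.48 ± 0.34 did not pass (adjusted p = 0.317). Without the 8 arrays in doubt it was 0.60 ± 0.18 and passed (adjusted p = 0.00769). The changes in FVB and B6129SF2/J were 0.13 ± 0.33 and −0.02 ± 0.33. In B2KO the change of −0.58 ± 0.35 (adjusted p = 0.359) became 0.02 ± 0.22 (adjusted p = 0.984) without replicate 10, which read 2.06 where the other treated B2KO hearts read 7.37 to 8.63. In the mean over the 4 lines the change was 0.00 ± 0.17, with a 95% interval of −0.33 to 0.34. The second probe set, 1446274_at, had group means of −0.55 to 0.11, near or under the array median, so its mean fall of −0.42 ± 0.14 (adjusted p = 0.0277) rests on dim signal. It passed the filter only through untreated groups, which favours a fall, and it did not pass after quantile normalisation (−0.35, adjusted p = 0.123).

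**Figure D5:**
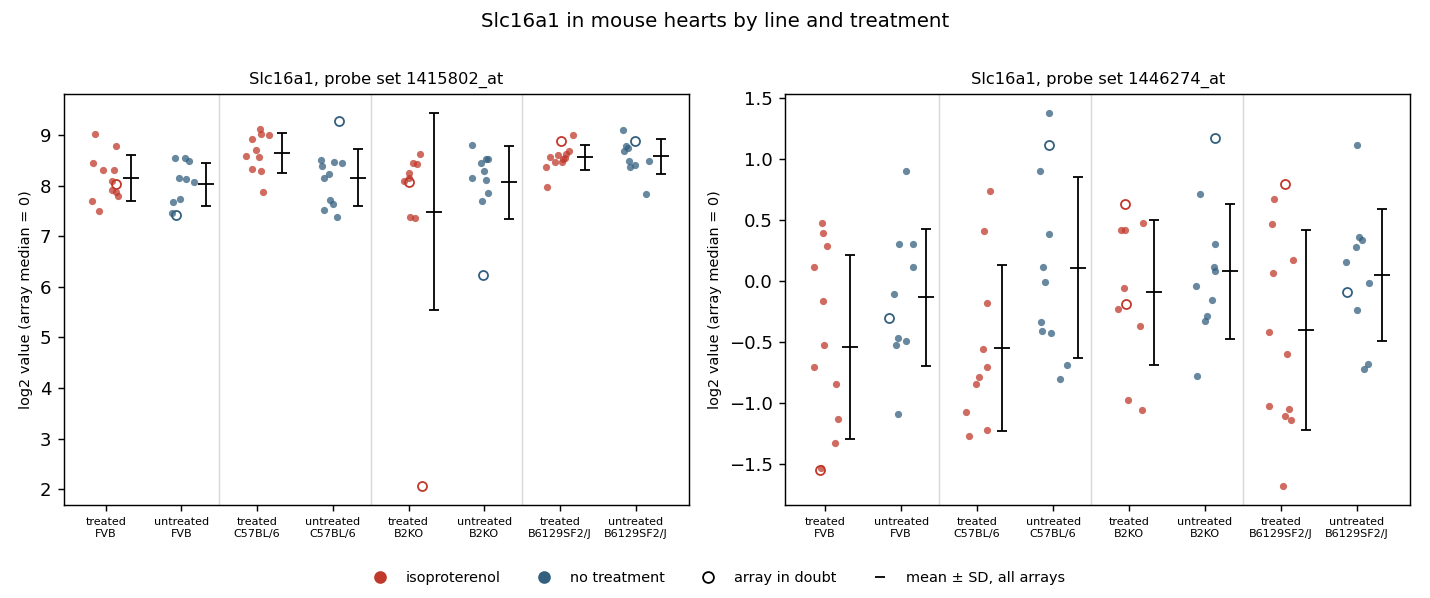
Slc16a1 log2 values in each array (vertical axis, array median = 0) for its 2 probe sets, by line, treated hearts left of untreated. Points are arrays, open points are the 8 arrays in doubt, and bars are mean ± SD over all arrays. At 1415802_at the groups overlap in every line, and at 1446274_at the group means lie between −0.55 and 0.11.

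The genes most like each member were sought by correlation over 77 arrays. The brightest probe set of the member was set against every tested probe set of a single symbol, and the highest value of each other gene was kept. For Bdh1 they were Egln3, an oxygen-sensing prolyl hydroxylase (r = 0.84), Olfml2b (0.78), Atg13 (0.78), Kifc3 (0.76) and Nudt4 (0.74). For Acat1 they were Fh1, fumarase of the citric acid cycle (r = 0.87), the complex I subunit gene Ndufs1 (0.87), Etfdh of electron transfer from fatty acid oxidation (0.86), Dnaja3 (0.86) and Hopx (0.85). For Oxct1, read at 1449059_a_at, they were Chchd10 (r = 0.81), citrate synthase (Cs, 0.78), Rps29 (0.78), the mitochondrial channel gene Vdac3 (0.76) and cytochrome c (Cycs, 0.75). For Slc16a1 they were the actin-binding protein gene Cfl2 (r = 0.86), Arf1 (0.84), Rab2a (0.82), Hnrnpk (0.81) and Capza2 (0.80). Within groups, the correlation of the leading gene fell to 0.45 for Bdh1 and Egln3 and was 0.87 for Acat1 and Fh1. The arrays share groups and normalisation, so these values are a description.

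Other genes of ketone, lactate and acetyl-CoA handling were read from a list of 37 genes, of which 21 had a tested probe set, 38 probe sets in all. In C57BL/6, 8 of the 38 rose and 1 fell, with 13.3% of all probe sets higher and 9.89% lower, and the median change was 0.24, against 0.08 over all probe sets. The largest rise was that of Ppara, the fatty acid receptor that drives ketone and lipid genes, at 1449051_at (2.00 ± 0.41, adjusted p = 0.000186), and Ppara 1439675_at rose by 1.03 ± 0.35 (adjusted p = 0.0259). Slc16a3, the lactate-exporting transporter MCT4, rose by 1.66 ± 0.33 (adjusted p = 0.000114), and Aacs, the cytosolic enzyme that uses acetoacetate for lipid synthesis, rose by 1.31 ± 0.28 and 1.54 ± 0.36 at its probe sets (adjusted p = 0.00034 and 0.000841). Bdh2, which encodes a cytosolic relative of BDH1 by name, rose by 0.88 ± 0.27 (adjusted p = 0.0123). Slc16a3, Bdh2 and Aacs were dim, with treated C57BL/6 means of 0.29 for Slc16a3, 0.33 for Bdh2, and 1.36 and 1.10 for Aacs. Slc16a3 and Bdh2 entered the fit only because of the treated C57BL/6 mean, the single one of 8 group means above the array median, so the filter favoured their rise there, and neither supports the count. Ldha, which makes lactate from pyruvate, rose by 0.97 ± 0.37 (adjusted p = 0.045), and the monocarboxylate transporter gene Slc16a7 rose by 0.70 ± 0.25 (adjusted p = 0.032). Acss2, which activates acetate, fell at 1 of its probe sets (−0.71 ± 0.26, adjusted p = 0.0374).

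In B6129SF2/J, Slc16a7 rose by 0.86 ± 0.24 (adjusted p = 0.0207), while Ppara 1449051_at fell (−1.33 ± 0.40, adjusted p = 0.032), as did the clock repressor gene Nr1d1 (−1.31 ± 0.39, adjusted p = 0.0306). The other Ppara probe sets changed by 0.62 ± 0.35 and 0.17 ± 0.23 there and did not pass. In FVB and B2KO, 0 of the 38 passed in limma's test, with 3 and 8 at an unadjusted p under 0.05, and few passed over all probe sets either (1.14% in FVB, and 0.0522% higher and 0.796% lower in B2KO). Against C57BL/6, the mean effect of FVB and B2KO was higher at 0 and lower at 5 of the 38, with 3.25% of all probe sets higher and 7.63% lower, which were 1449051_at of Ppara, both probe sets of Aacs, the Bdh2 probe set, with the same limit, and Pdk4. Pdk4, the kinase that restrains pyruvate oxidation, had a lower effect in the mean of FVB and B2KO than in C57BL/6 (−1.50 ± 0.40, adjusted p = 0.00898), from changes of −0.21 in FVB, −1.13 in B2KO and 0.84 in C57BL/6. The B2KO values of this list include the failed array, treated B2KO replicate 10, and the list was not read without it.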

How the data were processed

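The deposited values are linear intensity after GCRMA (named, without a version, in the submitters' processing notes). Their median was 1 on all arrays, read here as the authors' division by the array median, and log2 was then taken. The labels state 10 µg of total RNA per labelling and mention 20 FVB, C57BL/6 and B2KO mice, whereas each of these lines has 21 or 22 deposited arrays. P-values measure the spread between these arrays, each counted as 1 heart, and would be too small if some arrays shared a heart. Of 86 columns, treated B2KO replicates 4 and 9 duplicated each other (r over 0.9999) and were averaged, so 85 arrays were fitted. Genes were named by the platform table, updated through RefSeq (GRCm38.p6).

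Probe sets with a highest group mean above log2 0 (24885) entered 1 limma 3.58.1 fit in R 4.3.3 over 8 groups, with Benjamini-Hochberg adjustment over all of them. The script was tested on simulated data. A failed array had a median r under 0.7, a strain doubt a distance ratio over 0.9 at 200 markers, and an RNA doubt a Gapdh difference over 2. FVB and B2KO were treated as 1 background in the strain check, a choice made after seeing the data. Members, lists and comparisons were chosen with earlier results of these data known. Genes most like a member were the 5 highest correlations with its brightest probe set, among all tested probe sets of a single symbol. Alternatives covered normalisation, filter, moderation, arrays left out, 1 probe set a gene, the replicate number as a block, the duplicate kept, and each line alone. Over 39 pairs of arrays sharing a number, deviations correlated at −0.38 to 0.32, with a median of 0.0003. This gave no sign that the numbers pair the mice, but array quality enters these values, so they cannot exclude it. The number of arrays limits the precision.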

Additional observations from a re-analysis of the deposited data

Results flagged for a closer look

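Single arrays stood far from the rest of their group in 10 of 55 sets of 10 arrays tested, where chance gives about 1 in 20. The groups of 11 or 12 arrays (treated FVB, untreated C57BL/6 and treated B6129SF2/J) were not tested. Treated B2KO replicate 10, the failed array, accounted for 5: it read 0.0209 at Bdh1 1426959_at, 1.48 at Bdh1 1452257_at, 0.446 at Acat1 1424182_at, 2.76 at Acat1 1424183_at and 2.06 at Slc16a1 1415802_at, where the nearest treated B2KO values were 3.17, 5.89, 5.27, 7.38 and 7.37. Untreated B2KO replicate 8, with a Gapdh 3′ minus 5′ difference of 7.31, read −0.732 at Bdh1 1426959_at, 8.35 at Acat1 1424182_at and 6.23 at Slc16a1 1415802_at, with nearest values of 3.53, 7.14 and 7.70. Untreated FVB replicate 10, with a Gapdh difference of 2.06, read 5.16 at Acat1 1424182_at and 6.74 at Acat1 1424183_at, with nearest values of 6.23 and 7.76.

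The isoproterenol effect differed between lines in 9 tested differences. For Bdh1 1452257_at these were −1.73 (mean of FVB and B2KO minus C57BL/6), −2.28 (B2KO minus C57BL/6) and 2.42 (B6129SF2/J minus B2KO). For Oxct1 they were −0.92 at 1428140_at (B2KO minus C57BL/6) and 1.25 at 1436750_a_at (B6129SF2/J minus C57BL/6). At Oxct1 1455804_x_at they were 1.42 (mean of FVB and B2KO minus C57BL/6), 1.76 (FVB minus C57BL/6), 3.39 (B6129SF2/J minus C57BL/6) and 2.30 (B6129SF2/J minus B2KO). Of these, the call at 1428140_at was lost in 5 of 10 settings and that of 2.30 in 7 of 10.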

How the results depend on the processing

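No called value changed sign under any alternative. The number of the 11 member probe sets called moved by over 1.5 times as follows. For the FVB effect (0 with all arrays) it was 1 with quantile normalisation, with arrays centred on the median of the tested probe sets and without 3 arrays, and 3 without 8 arrays. For the B2KO effect (2) it was 0 without the failed array, in the fit of each line alone and at the lowest of the leave-one-out fits, and 1 with quantile normalisation, centring, no filter, trend and robust moderation, without 3 arrays and without 8. For C57BL/6 (4) centring gave 7, and for B6129SF2/J (4) quantile normalisation gave 7, 4 higher and 3 lower. For FVB and B2KO against C57BL/6 (2) it was 5 without 8 arrays and 1 to 4 over leave-one-out fits. For FVB minus C57BL/6 (1) it was 0 with no filter and the stricter one, 2 with quantile normalisation and without the failed array, and 0 to 2 over leave-one-out fits. For B2KO minus C57BL/6 (2) it was 1 with no filter, without the failed array and without 3 arrays, 5 without 8, and 1 to 4 over leave-one-out fits. For B6129SF2/J minus B2KO (2) it was 0 with no filter and without 3 arrays, 1 with quantile normalisation, centring, trend and robust moderation and without the failed array, and down to 0 over leave-one-out fits. For untreated B2KO minus untreated C57BL/6 (3) quantile normalisation gave 5. For untreated B6129SF2/J minus untreated FVB (3) it was 5 without the failed array and without 3 arrays, and up to 5 over leave-one-out fits, and minus untreated C57BL/6 (3) it was 5 without 8 arrays. With 1 probe set a gene, which leaves 4 member probe sets by construction, counts were 0, 1 or 2. Where not said, the cause was not tested. Centring moved the median of all probe sets in C57BL/6 to −0.10, against 0.08 as deposited, and in B2KO to −0.00, against −0.23. The replicate block, with a consensus correlation of 0.0022, left the member counts at 4 in C57BL/6 and 4 in B6129SF2/J and changed no call count.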
